A study of Mus musculus with 14 samples.

Results

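The genes described here encode 10 C-type lectin receptors of natural killer (NK) cells: CD94 (Klrd1) and its NKG2 partners NKG2A (Klrc1) and NKG2C (Klrc2), NKG2D (Klrk1), the NKR-P1 receptors Klrb1a, Klrb1c and Klrb1f, the pair Klre1 and Klri2, and Klrg1. They were named by symbol, and all 10 were found by Ensembl identifier among the 46078 genes of the count table. All 10 passed the filter on low counts. The counts came from 14 bulk RNA-seq libraries of bone marrow lymphocytes of C57BL/6 mice aged 8 weeks, with 2000 cells sorted per library. Immature NK cells (iNK) were sorted as cells with NK1.1, DX5 and CD27 and without CD3, IL-7Ra and CD11b, and immature type 1 innate lymphoid cells (iILC1) as cells with NK1.1, IL-7Ra and CD49a and without CD3. Control mice, labelled Il-15-flox/KO, had 1 floxed Il15 allele opposite 1 knockout allele. The conditional knockouts (cKO) had that same Il15 genotype together with Vav-Cre, a transgene that drives Cre in the blood-forming lineage. There were 3 control and 4 cKO libraries of each cell type. The comparisons address how the receptor genes differ between the cell types and whether they differ with the cKO genotype. Because NK1.1 is the product of Klrb1c and was part of both gates, the presence of Klrb1c in every library is a property of the sort. The labels do not say that libraries came from separate mice, so p-values measure the spread between these libraries, which may be technical.

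NK cells and ILC1s carry receptors that raise or lower their response to the cells they touch. CD94 forms a dimer with NKG2A, which inhibits, or with NKG2C, which activates through the adaptor DAP12, and both dimers bind the non-classical MHC molecule Qa-1. NKG2D activates on meeting stress-induced ligands such as the RAE-1 and H60 proteins. The NKR-P1 receptors include activating members such as NK1.1 and inhibitory ones such as the product of Klrb1b, and several of them bind proteins of the Clec2 family. KLRE1 pairs with KLRI1 to inhibit or with KLRI2 to activate, and KLRG1 is an inhibitory receptor for cadherins that marks mature NK cells.

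Of the receptor genes, 9 lie in the NK gene complex of mouse chromosome 6 (mm10), from Klrb1a at 128609227 to the end of Klri2 at 129740484. Klrg1 lies on the same chromosome, at 122270596 to 122282882, outside that stretch. Klrc1 spans 129666015 to 129678973, Klrc2 129647496 to 129660689, Klrk1 129610323 to 129623864 and Klri2 129729041 to 129740484, all on the minus strand. Klrb1f (129045901 to 129057471), Klre1 (129577893 to 129585824) and Klrd1 (129591782 to 129598775) lie in this order on the plus strand. Klrb1a (128609227 to 128622934) and Klrb1c (128778485 to 128789215) are on the minus strand. None of the 10 overlaps another gene of the table.

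Several of these genes are close copies of each other, which bears on every count below. In the longest coding sequences of the GENCODE M21 annotation (GRCm38, the assembly of mm10), Klrc2 is 95.3% identical to its neighbour Klrc3, with an unbroken identical run of 203 bases. Klrb1a and Klrb1c are 92.6% identical, Klrc1 and Klrc2 83.1%, and Klri2 and Klri1 79.9%. Reads that fall in the shared runs cannot be given to 1 gene by their letters alone. How such reads were counted is not given in the sources used here. The counts of Klrc1, Klrc2, Klrb1a, Klrb1c and Klri2 are therefore uncertain to that extent, as are those of Klrb1b, Klrc3 and Klri1. The runs of the pairs that matter most for the results below are shown, from coding base 633 to 732 of Klrc1 (615 to 714 of Klrc2) and from coding base 67 to 174 of Klrb1a (193 to 300 of Klrb1c):
Klrc1 and Klrc2: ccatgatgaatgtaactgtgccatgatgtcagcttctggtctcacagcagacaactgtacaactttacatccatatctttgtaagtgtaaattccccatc
Klrb1a and Klrb1c: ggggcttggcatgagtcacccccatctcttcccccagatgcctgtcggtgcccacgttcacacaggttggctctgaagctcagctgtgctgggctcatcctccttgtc
The first is the final 100 coding bases of both genes, and the second is 108 bases long.

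Promoter sequences, 250 bases before to 50 after the start in RefSeq (GRCm38.p6), were at hand for 7 of the 10 genes (Klrb1a, Klrb1c, Klrb1f, Klre1, Klrk1, Klrc2 and Klrc1). They were searched on both strands for 4 motifs of factors active in NK cells and ILC1s: the RUNX core TGTGGT, the T-box half-site GGTGTG, the STAT palindrome TTCNNNGAA and the NFIL3 motif TTANNTAA. The 4 shown belong to Klrc2 and Klre1, which were lower in iILC1 than in iNK in both genotypes, and to Klrc1 and Klrb1f, which were higher in iILC1 in cKO mice. Capitals mark every match to any of the 4 motifs, with ACCACA the reverse complement of the RUNX core:
Klrc2, chr6:129660547-129660846, minus strand: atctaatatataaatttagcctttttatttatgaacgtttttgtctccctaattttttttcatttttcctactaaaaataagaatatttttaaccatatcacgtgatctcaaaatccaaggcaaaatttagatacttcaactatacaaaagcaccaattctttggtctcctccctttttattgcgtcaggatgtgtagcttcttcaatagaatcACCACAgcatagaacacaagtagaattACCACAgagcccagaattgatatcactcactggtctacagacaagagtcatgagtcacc
Klre1, chr6:129577963-129578262, plus strand: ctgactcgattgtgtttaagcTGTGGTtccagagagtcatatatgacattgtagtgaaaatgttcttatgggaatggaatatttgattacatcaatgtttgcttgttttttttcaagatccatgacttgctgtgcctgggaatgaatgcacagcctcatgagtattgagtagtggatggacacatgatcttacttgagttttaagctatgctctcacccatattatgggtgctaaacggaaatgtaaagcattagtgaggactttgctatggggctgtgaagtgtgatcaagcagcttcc
Klrc1, chr6:129678924-129679223, minus strand: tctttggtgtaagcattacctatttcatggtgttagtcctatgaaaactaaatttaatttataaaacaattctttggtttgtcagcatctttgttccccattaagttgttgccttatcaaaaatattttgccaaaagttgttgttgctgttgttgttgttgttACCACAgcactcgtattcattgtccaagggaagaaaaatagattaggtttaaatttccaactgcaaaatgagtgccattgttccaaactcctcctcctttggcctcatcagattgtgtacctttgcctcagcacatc
Klrb1f, chr6:129045651-129045950, plus strand: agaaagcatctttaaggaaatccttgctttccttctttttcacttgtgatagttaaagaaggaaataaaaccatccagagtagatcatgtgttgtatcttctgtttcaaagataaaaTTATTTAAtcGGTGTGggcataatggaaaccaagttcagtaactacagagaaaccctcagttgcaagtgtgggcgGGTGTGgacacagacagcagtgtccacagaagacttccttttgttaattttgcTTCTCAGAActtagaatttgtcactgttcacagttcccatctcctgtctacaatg
The RUNX core was found in 6 of the 7 genes, all but Klrb1f, against 16.8% of the 32851 RefSeq promoters of this length. Klrc2 holds 2 of them. Klrb1f instead holds 2 T-box half-sites (19% of all promoters have at least 1), a STAT match (8.3%) and an NFIL3 match (6%), and none of the other 6 genes has a match to these. No match shown overlaps another. The 6 genes are not independent, since the promoters of Klrb1a and Klrb1c are 90.8% identical. The promoters of Klrc1 and Klrc2, by contrast, are 58.6% identical over their aligned bases. Klre1 and Klrc2 have a second listed start, and the RUNX match of Klre1 lies only in the window of the first. A match in letters says nothing of binding, which was not measured.

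Total counts per library were 3512796 to 12572326, lowest in control iILC1. Il15, the targeted gene, lay at 8.16 to 11.1 CPM in control iNK and 8.58 to 12.3 in cKO iNK, and at 11.7 to 13.7 in control iILC1 and 11.2 to 25 in cKO iILC1. These counts cover the whole gene and controls also carry a knockout allele, so they do not check the genotype labels. Of the marker lists of the 2 sorted types, all 5 ILC1 markers were higher in iILC1 than in iNK in both genotypes, and 4 of 5 NK markers were lower, with the fifth, Ncr1, higher in cKO. Il7r and Itga1 of the ILC1 list and Itga2 of the NK list are genes of gate markers. Their differences are therefore in part a property of the sort. Summed B-cell markers (12 genes, none at 0) reached 71.2 to 87 CPM in control iNK, 357 to 506 in cKO iNK, 172 to 246 in control iILC1 and 325 to 456 in cKO iILC1. No marker to remove B cells is named in the gates. In a bulk sample, fewer cells of a type and less RNA per cell cannot be told apart.

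Except for Klrg1, the receptor genes were well expressed in all 4 groups. Levels are given as counts per 1000000 counts of a library, scaled by TMM factors (CPM), and, where genes are compared with each other, as CPM per kilobase of exon. Per kilobase, Klrd1 led in control iNK at 723 ± 188 (SD, n = 3), followed by Klrb1c (620 ± 168), Klre1 (432 ± 122), Klrk1 (348 ± 87.3) and Klrb1f (290 ± 35.6). Klrb1a (199 ± 46.2), Klrc1 (195 ± 27.3) and Klri2 (185 ± 40.3) followed as a group whose ranges overlapped, and then Klrc2 at 62.6 ± 20.9 and Klrg1 at 9.71 ± 1.73. Among these 10, the ranges of neighbours in the order separated only between Klrb1f and Klrb1a, between Klri2 and Klrc2 and between Klrc2 and Klrg1. Klrc2, Klrk1 and Klri2 have long exon sets in the annotation (5812, 4318 and 3913 bases, against coding lengths of 714, 696 and 744), which lowers their values per kilobase.

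The order was different in iILC1. In control iILC1, Klrb1c led at 438 ± 55.7 CPM per kilobase (n = 3), then Klrd1 (337 ± 81.3), Klrc1 (292 ± 62.3), Klrb1f (285 ± 47.1) and Klrk1 (281 ± 54.9). Those 5 overlapped from each to the next and lay above all other receptor genes, of which Klre1 (142 ± 30.4) and Klrb1a (133 ± 23.7) overlapped, while Klri2 (53.1 ± 7.58), Klrc2 (22.7 ± 3.58) and Klrg1 (7.2 ± 1.53) each stood apart. Klrc1 was thus the third of the 10 genes here and the seventh in control iNK. In cKO iNK it was the eighth, at 111 ± 27.1 (n = 4), between Klrb1a (139 ± 23.8) and Klrc2 (71.4 ± 19.6), both overlapping with it. In cKO iILC1, Klrb1c (586 ± 141), Klrd1 (386 ± 115), Klrb1f (383 ± 97.4), Klrk1 (372 ± 123), Klrc1 (328 ± 126), Klrb1a (160 ± 49), Klre1 (99.9 ± 29.1) and Klri2 (70.3 ± 11.7) overlapped from each to the next. Klrc2 (28.1 ± 9.05) and Klrg1 (7.59 ± 2.24) each stood apart.

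**Figure D1:**
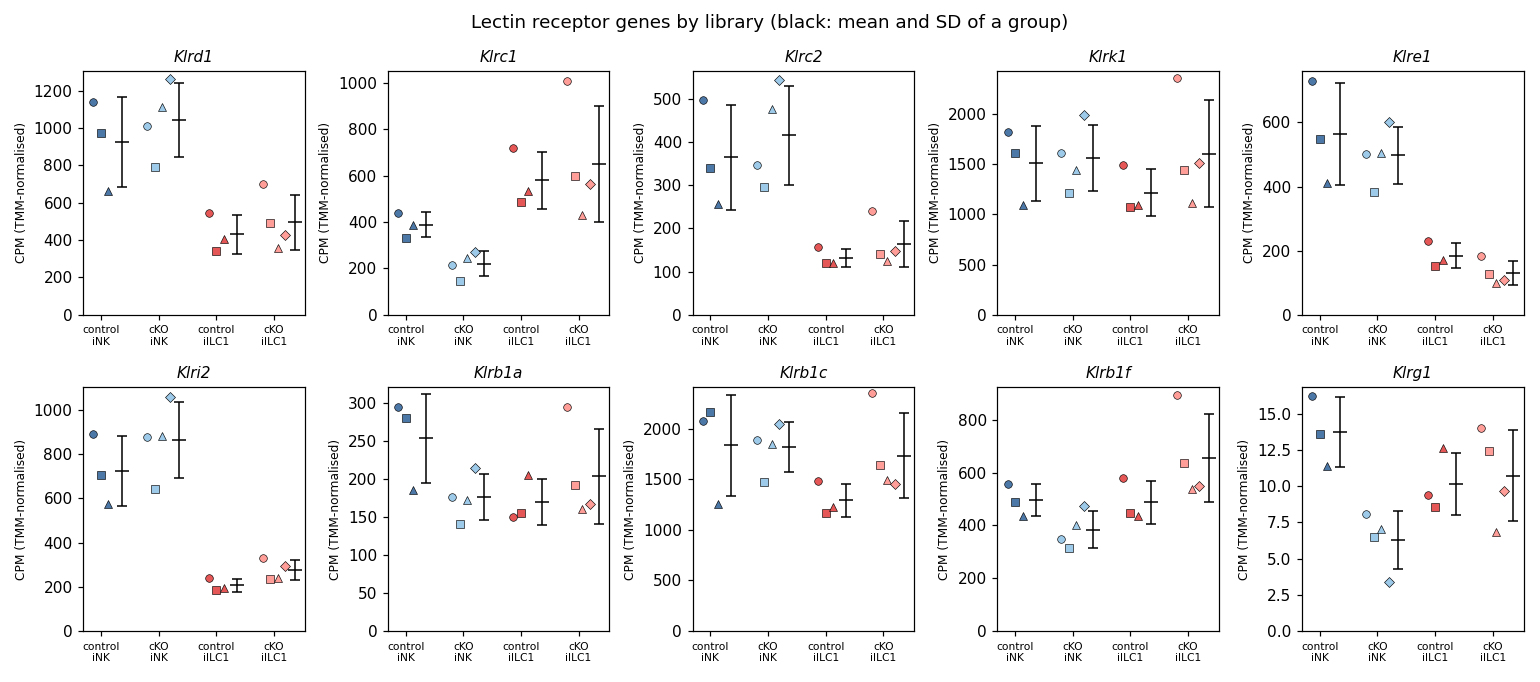
TMM-normalised CPM of each receptor gene in the 14 libraries (y axis, linear from 0; x axis, the 4 groups of 3 or 4 libraries). Symbols give the replicate number (circle 1, square 2, triangle 3, diamond 4) and black bars the mean and SD of a group; Klre1, Klri2, Klrc2 and Klrd1 are lower in both iILC1 groups than in both iNK groups, and Klrc1 is lowest in cKO iNK, at 147 to 271 CPM.

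In control mice, 4 of the 10 receptor genes were lower in iILC1 than in iNK and none was higher. These were Klri2, Klre1, Klrc2 and Klrd1, by 2.15 to 3.49 times. Of all 26990 genes tested, 4.11% passed in this comparison, 0.945% higher and 3.16% lower (edgeR's quasi-likelihood F test, two-sided, Benjamini-Hochberg adjusted p below 0.05). In cKO mice the same 4 genes were lower in iILC1, by 2.11 to 3.82 times, and Klrc1 and Klrb1f were higher, so 6 of 10 passed against 3.41% of all genes (1.75% higher, 1.66% lower). The median log2 fold change of the 10 was −0.54 in control, beside 0.16 over all genes, and −0.01 in cKO, beside 0.01. The libraries of the 2 cell types did not overlap for 5 of the 10 genes in control (25% of all genes) and for 6 of 10 in cKO (6.61%). The size of the control differences varied over 23 alternative fits. Their log2 fold changes ran from −1.32 to −0.51 for Klrd1 and from −1.67 to −0.86 for Klrc2. For Klre1 they ran from −1.81 to −1.03 and for Klri2 from −1.95 to −1.41.

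CD94 was lower in iILC1 in both genotypes, and its inhibitory partner NKG2A was not. Klrd1 read 1140, 976 and 664 CPM in control iNK and 546, 342 and 408 in control iILC1. The groups did not overlap, and the log2 fold change was −1.10 ± 0.283 (SE; adjusted p = 0.0211). In cKO mice Klrd1 read 1010, 793, 1110 and 1260 in iNK and 700, 493, 358 and 428 in iILC1, again without overlap (−1.08 ± 0.244, adjusted p = 0.00589). The control call rests on few libraries: the adjusted p was 0.146 without control iNK replicate 1, 0.0651 without replicate 2, 0.174 without control iILC1 replicate 2 and 0.119 without replicate 3.

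Klrc2, the activating partner NKG2C, was lower with Klrd1. It read 496, 339 and 257 CPM in control iNK against 156, 120 and 120 in control iILC1 (−1.46 ± 0.287, adjusted p = 0.00183). In cKO mice it read 346, 296, 475 and 543 in iNK and 241, 140, 125 and 148 in iILC1 (−1.34 ± 0.246, adjusted p = 0.000482). The lowest iNK library stood above the highest iILC1 library in both genotypes. Klrc3, the near-copy that is not among the 10, went the same way, from 49.9 ± 20.6 to 21.3 ± 3.75 CPM in control (−1.23, adjusted p = 0.0111) and from 46.6 ± 11 to 19.6 ± 4.54 in cKO (−1.25, adjusted p = 0.00125).

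Klrc1, the inhibitory partner NKG2A, lay on the other side. It read 441, 333 and 389 CPM in control iNK and 720, 487 and 533 in control iILC1. All 3 iILC1 libraries were above all 3 iNK libraries, but the difference did not pass (log2 fold change 0.58, 95% interval 0 to 1.16, adjusted p = 0.238). With the background of each library, described below, as a covariate, the control difference passed (1.05, adjusted p = 0.00216). In cKO mice the difference passed without the covariate: Klrc1 read 216, 147, 246 and 271 in iNK and 1010, 597, 432 and 566 in iILC1 (1.57 ± 0.25, adjusted p = 6.56e-05), a 2.96-fold higher level. The change of this cell-type difference with genotype was 0.99 ± 0.374 and did not pass (adjusted p = 0.709).

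Klre1 and Klri2, whose products form a pair, showed the widest gaps between the cell types. Klri2, the activating chain, read 891, 708 and 577 CPM in control iNK and 241, 185 and 197 in control iILC1 (−1.80 ± 0.26, adjusted p = 3.08e-05). In cKO mice it read 880, 641, 881 and 1060 against 331, 234, 241 and 294 (−1.65 ± 0.223, adjusted p = 3.9e-06). Every iNK library was above every iILC1 library. Klre1 read 729, 548 and 412 in control iNK and 229, 153 and 172 in control iILC1 (−1.61 ± 0.274, adjusted p = 0.000338), and 502, 383, 503 and 601 against 184, 127, 100 and 109 in cKO mice (−1.93 ± 0.239, adjusted p = 8.13e-07). Klri1, which encodes the inhibitory partner of KLRE1, was far less abundant and did not follow them. It stood at 14.7 ± 3.05 CPM in control iNK and 15.4 ± 1.77 in control iILC1 (adjusted p = 0.914), and was higher in cKO iILC1 (23.6 ± 7.45) than in cKO iNK (11.5 ± 2.65; 1.03 on the log2 scale, adjusted p = 0.0134).

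The NKR-P1 genes differed less between the cell types, apart from Klrb1b. Klrb1c, which encodes NK1.1, lay at 1260 to 2160 CPM in control iNK and 1170 to 1480 in control iILC1 (−0.50, interval −1.06 to 0.06, adjusted p = 0.292), and at 1470 to 2050 and 1450 to 2350 in cKO (−0.06, interval −0.55 to 0.42). Klrb1a lay at 186 to 295 and 150 to 205 in control (−0.58, interval −1.10 to −0.05, adjusted p = 0.2) and at 141 to 215 and 161 to 295 in cKO (0.20, interval −0.25 to 0.66). Both genes' libraries overlapped between the cell types in both genotypes.

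Klrb1f read 347, 315, 401 and 473 CPM in cKO iNK and 895, 637, 536 and 550 in cKO iILC1, with no overlap and a log2 fold change of 0.77 ± 0.219 (adjusted p = 0.0431). The control groups, at 437 to 558 and 434 to 580, overlapped (−0.02, interval −0.54 to 0.49). The cKO call was near the threshold and was lost under 9 of 23 alternatives: with other scaling factors (RLE, adjusted p = 0.0541), without a filter on low counts (0.0564), without the 2 libraries of least background (0.109), and without any 1 of control iNK replicate 1, cKO iNK replicate 1, 2 or 3 and control iILC1 replicate 2 or 3 (0.0556 to 0.15). Klrb1b, an inhibitory NKR-P1 receptor gene outside the 10, differed most among the NKR-P1 genes named here, from 121 ± 14.5 to 383 ± 72.9 CPM in control (log2 fold change 1.66, adjusted p = 8.83e-05) and from 111 ± 18.7 to 705 ± 184 in cKO (2.67, adjusted p = 4.5e-10). Klrb1, another gene of this family, was lower in iILC1 in both (−1.46 and −1.49, adjusted p = 0.00438 and 0.000227), with group means of 7.17 to 21.5 CPM.

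Klrk1 and Klrg1 did not pass in either genotype. Klrk1, the gene of NKG2D, lay at 1090 to 1820 CPM in control iNK, 1070 to 1490 in control iILC1, 1210 to 1990 in cKO iNK and 1110 to 2360 in cKO iILC1. Its log2 fold change between the cell types was −0.31 (interval −0.90 to 0.28) in control and 0.04 (interval −0.47 to 0.55) in cKO, intervals that still allow differences of some size. Klrg1 lay at 11.4 to 16.2 CPM in control iNK and 8.55 to 12.6 in control iILC1 (−0.43 ± 0.349, adjusted p = 0.482), and in cKO at 3.41 to 8.11 and 6.84 to 14 (0.80 ± 0.303, adjusted p = 0.231). Its counts were 32 to 116 per library, so its values carry a larger counting error than those of the others, whose counts were at least 512.

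Markers of other cells also differed between the sorted types. Summed ILC2 markers (10 genes, none at 0 in any group) were 135 to 190 CPM in control iNK and 234 to 342 in control iILC1, and 158 to 188 and 429 to 703 in cKO. Of the 7 tested, 2 were higher in iILC1 in both genotypes, 0 were lower and 5 did not pass. The 2 were Rora (49.5 and 135 CPM in control, 65.4 and 289 in cKO) and Arg1 (3.74 and 32.1, 5.43 and 82.8). Areg, Il13 and Il5 were too low to be tested. Summed dendritic cell markers (10 genes, none at 0) were 658 to 1080 in control iNK and 450 to 587 in control iILC1, and 707 to 1040 and 417 to 600 in cKO. Itgax (418 and 194 CPM in control) and Irf8 (295 and 117), which are not limited to dendritic cells, were the 2 of that list that were lower in control iILC1, and 7 of the 10 had positive estimates there without passing. In cKO, 3 of the list were lower in iILC1 (Itgax, Irf8 and Ly6d) and 1, Bst2, was higher. Summed T-cell and NKT markers (12 genes, none at 0) overlapped in both genotypes, at 497 to 1000 over all libraries, a sum led by Trbc1 (group means of 340 to 455). Single genes of that list did differ: of the 11 tested, 5 were higher in iILC1 in control and 3 in cKO, and 0 were lower. In control, Cd3e averaged 3.31 CPM in iNK and 64 in iILC1 (adjusted p = 1.23e-05), Trac 17 and 45.9 (0.00339) and Cd3g 26 and 64.1 (0.00346). Both gates were set on cells without CD3. The part of these cells in the receptor differences was not tested.

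**Figure D2:**
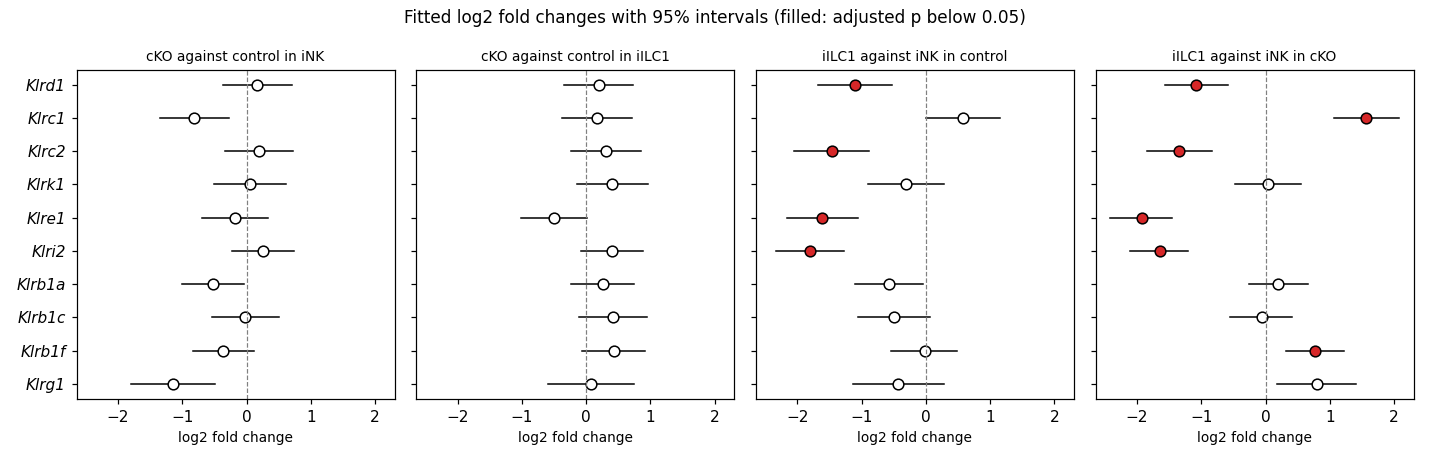
Fitted log2 fold changes of the 10 receptor genes (x axis) in the 4 comparisons, with 95% intervals as lines; filled points have an adjusted p below 0.05. In the 2 panels of iILC1 against iNK, Klrd1, Klrc2, Klre1 and Klri2 lie left of 0 with filled points in both genotypes, Klrc1 is filled on the right in cKO only, and no point is filled in the 2 panels of cKO against control.

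With the cKO genotype, no receptor gene passed in iNK. Klrc1 and Klrg1 had lower levels in every cKO iNK library than in any control library, without passing the adjusted test, and the other 8 overlapped. The counts of passing genes were 0 of 10 beside 0.408% of all genes, and of non-overlapping genes 2 of 10 beside 8.84%. At an unadjusted p below 0.05 there were 3 of the 10 (Klrc1, Klrb1a and Klrg1) and 2139 of all 26990 genes. Their median log2 fold change was −0.10, beside 0.06 over all genes.

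Klrc1 read 441, 333 and 389 CPM in control iNK and 216, 147, 246 and 271 in cKO iNK, with means of 388 ± 54.1 and 220 ± 53.7. Its log2 fold change was −0.82 ± 0.262 (interval −1.35 to −0.28, adjusted p = 0.27). With only the 2 groups compared in the fit it passed (−0.80, adjusted p = 0.0455), as it did without cKO iILC1 replicate 1 (−0.79, adjusted p = 0.0379). Klrg1 read 16.2, 13.6 and 11.4 in control iNK and 8.11, 6.52, 7.02 and 3.41 in cKO iNK, with 71 to 104 and 40 to 54 counts. Its log2 fold change was −1.15 ± 0.323 (adjusted p = 0.153), and it passed in DESeq2 (−1.21, adjusted p = 0.0211). Klrb1a, at 186 to 295 and 141 to 215, had −0.52 (interval −1 to −0.04, adjusted p = 0.593).

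The remaining genes gave estimates near 0 with intervals of about 1 log2 unit in width. Those of Klrd1 (0.17, −0.36 to 0.71), Klrc2 (0.19, −0.34 to 0.72), Klri2 (0.26, −0.23 to 0.74) and Klrk1 (0.05, −0.50 to 0.61) were above 0, and those of Klrb1c (−0.02, −0.54 to 0.50), Klre1 (−0.18, −0.69 to 0.33) and Klrb1f (−0.37, −0.84 to 0.11) below it. With the background of each library as a covariate, Klrd1 passed (0.46, adjusted p = 0.0308). B-cell markers, given above, were 357 to 506 CPM in cKO iNK against 71.2 to 87 in control, and 7 of the 12 were higher. Summed erythroid markers were 124 to 664 against 58.5 to 94.2, and 0 of those 10 passed. Within cKO iNK, Hbb-bs alone ran from 31.1 to 263 CPM. The part of either in the Klrc1 and Klrg1 levels was not tested.

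In iILC1, 0 of the 10 passed with genotype beside 0.0482% of all genes, and none of the 10 had groups without overlap, beside 5.48%. No receptor gene had an unadjusted p below 0.05, against 1203 of all genes. The nearest was Klre1, at 229, 153 and 172 CPM in control and 184, 127, 100 and 109 in cKO (−0.50, interval −1.01 to 0.01, adjusted p = 0.982). It passed with background as a covariate (−0.70, adjusted p = 0.00134). The other 9 had positive estimates, from 0.08 for Klrg1 to 0.43 for Klrb1f, and the median of the 10 was 0.28 beside 0.01 over all genes. Replicate 1 of cKO iILC1 held the highest value of its group for all 10 genes, for example 1010 CPM of Klrc1 against 432 to 597 in the other 3. Klrb1b, outside the 10, was higher in every cKO iILC1 library (565 to 961 CPM) than in any control one (331 to 466), with a log2 fold change of 0.88 and an adjusted p of 0.412. Summed B-cell markers were 325 to 456 against 172 to 246 here. Cd74 alone of those 12 passed (326 CPM against 116), and 8 had negative estimates. ILC2 markers summed to 429 to 703 against 234 to 342, with 0 of the 7 tested passing. Trac, of the T-cell receptor, was lower in cKO (16.7 CPM against 45.9, adjusted p = 0.0178). Their part was not tested.

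The genotype difference itself was not shown to vary with cell type. In the test of the interaction, 0 of 10 passed beside 0.0778% of all genes. Klrg1 (1.22 ± 0.462) and Klrc1 (0.99 ± 0.374) had the largest estimates, both with an adjusted p of 0.709. With background as a covariate Klre1 passed (−0.80, adjusted p = 0.0279). At an unadjusted p below 0.05 there were 4 of the 10 (also Klrb1a and Klrb1f) and 1863 of all genes.

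Ratios of 2 receptor genes within a library do not depend on the scaling between libraries, but their level depends on the annotated exon lengths. They were chosen after the group values had been seen, so they are given as descriptions without a test. Klrc1 over Klrd1, NKG2A per CD94 on the scale of CPM per kilobase, was 0.25, 0.22 and 0.378 in control iNK and 0.138, 0.119, 0.143 and 0.139 in cKO iNK. It was 0.843 to 0.92 in control iILC1 and 0.779 to 0.933 in cKO iILC1. On this scale, NKG2A transcripts approached those of CD94 in iILC1 and were far below them in iNK. The iNK groups did not overlap, as for 22.9% of 11099 genes set over Klrd1 in the same way. Klrc2 over Klrc1, the activating over the inhibitory partner, was 0.225 to 0.383 in control iNK, 0.545 to 0.688 in cKO iNK, 0.074 to 0.0844 in control iILC1 and 0.0804 to 0.0984 in cKO iILC1. Of all genes set over Klrc1, 58% separated the iNK genotypes too, so that separation is common to genes divided by Klrc1. In CPM, not divided by length, Klrc2 averaged 364 and Klrc1 388 in control iNK, and 415 and 220 in cKO iNK. The averages were 132 and 580 in control iILC1, and 163 and 651 in cKO iILC1.

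Klri2 over Klre1, the activating chain per KLRE1, was 0.407 to 0.466 in control iNK and 0.557 to 0.588 in cKO iNK, where 6.83% of genes over Klre1 were without overlap. In iILC1 it was 0.351 to 0.403 in control and 0.597 to 0.897 in cKO, where 61.2% of genes over Klre1 were without overlap. The ratio was thus higher in cKO in both cell types. The share of genes over Klre1 that separated, in either direction, differed widely between the cell types. In CPM, not divided by length, Klri2 averaged more than Klre1 in every group, for example 725 and 563 in control iNK. Klrb1a over Klrb1c was 0.301 to 0.342 in control iNK and 0.217 to 0.244 in cKO iNK (13% of genes over Klrb1c separated there), and overlapped in iILC1 at 0.234 to 0.386 and 0.251 to 0.292. Klrb1b over Klrb1c was 0.0631 to 0.111 over all iNK libraries, 0.374 to 0.418 in control iILC1 and 0.505 to 0.578 in cKO iILC1 (26.3% of genes over Klrb1c separated there). Klrk1 over Klrd1 was 0.387 to 0.489 over all iNK libraries and 0.791 to 1.05 over all iILC1 libraries. Klrd1 was itself lower in iILC1, and shares over all genes were not computed for ratios between the cell types.

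**Figure D3:**
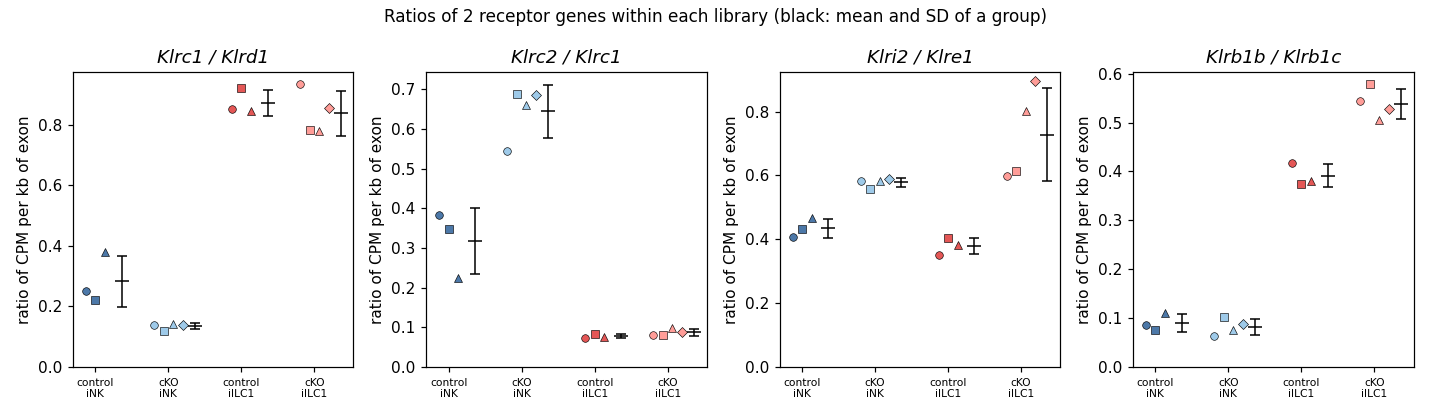
Ratios of CPM per kilobase of exon of 2 receptor genes within each library (y axis, linear from 0; x axis, the 4 groups), with the mean and SD of a group in black. Klrc1 over Klrd1 lies at 0.119 to 0.378 in iNK and 0.779 to 0.933 in iILC1, and Klri2 over Klre1 lies higher in cKO than in control in both cell types.

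Genes that work with these receptors were read from lists of related receptors, signalling partners, ligands and transcription factors. Over all genes tested, 4.11% passed between the cell types in control and 3.41% in cKO. With genotype, 0.408% passed in iNK and 0.0482% in iILC1. Of 15 signalling partners, 4 were lower and 0 higher in iILC1 than in iNK in control (Cd247, Fyn, Syk and Tyrobp), and 3 lower in cKO (Cd247, Fyn and Syk). Tyrobp, which encodes the adaptor DAP12, averaged 757 CPM in control iNK and 382 in control iILC1 (−0.99, adjusted p = 0.0379), and 598 and 370 in cKO (−0.69, adjusted p = 0.146). Fyn and Syk, kinases downstream of such receptors, had −1.37 and −1.19 in control (adjusted p = 0.00175 and 0.00323) and −1.30 and −1 in cKO (0.000299 and 0.00278). Cd247, the CD3 zeta chain, had −1.19 in control (adjusted p = 0.00144) and −0.81 in cKO (0.0117). Hcst, the DAP10 adaptor of NKG2D, averaged 56.1 to 78.7 CPM over the 4 groups and Ptpn6, the phosphatase SHP-1 that inhibitory receptors recruit, 201 to 273. Neither passed in any comparison. With genotype, Cd247 alone of the 15 passed, in iNK, falling from 155 to 71.6 CPM (−1.11 ± 0.208, adjusted p = 0.00453). In iILC1 it was 67.9 and 40.8 (−0.74, adjusted p = 0.503).

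Among 15 tested ligand genes of 20 listed, 0 passed between the cell types in control and 2 in cKO, both higher in iILC1. These were Clec2i, a ligand gene of the NKR-P1 family (85.3 to 169 CPM, 0.98, adjusted p = 0.00456), and H60b, a ligand gene of NKG2D (11 to 22.4 CPM, 1.03, adjusted p = 0.0295). H2-T23, the gene of Qa-1, averaged 358 to 471 CPM in the 4 groups and did not pass in any comparison. No ligand gene passed with genotype in either cell type. Of 6 tested related receptors outside the 10, 3 passed between the cell types in control (Klrb1b higher, Klrc3 and Klrb1 lower), 4 in cKO (these and Klri1) and 0 with genotype.

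Of 14 transcription factors, Eomes, which guides NK cells, was 731 CPM in control iNK and 132 in control iILC1 (−2.47, adjusted p = 4.2e-07), and 804 and 94.3 in cKO (−3.09, adjusted p = 9e-11). Tbx21, the gene of T-bet, did not pass in any comparison, at 435 to 655 CPM. Zfp683 (Hobit) was higher in iILC1 by 2.83 in control and 4.45 in cKO (adjusted p = 3.12e-06 and 1.23e-11), and Prdm1 (Blimp-1) lower by −1.44 and −0.92 (0.000323 and 0.00476). In all, 1 of the 14 was higher and 2 lower in control, and 2 higher and 4 lower in cKO. None passed with genotype.

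Along the NK gene complex, genes that differed between the cell types stood beside genes that did not pass. Between Klrb1a and Klri2, a window of 1131 kb that holds 49 genes of the table, 36 genes were tested and 27 of them were not among the 10. Of those 27, 4 passed between the cell types in control (4.11% of all genes tested) and 8 in cKO (3.41%), and 0 with genotype in either cell type. From Klre1 to Klri2, in control, Klre1 and Klrd1 were lower in iILC1, Klrk1 did not pass, Klrc3 and Klrc2 were lower, Klrc1 and Klri1 did not pass, and Klri2 was lower again. In cKO the order of calls was the same, except that Klrc1 and Klri1 were higher.

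**Figure D4:**
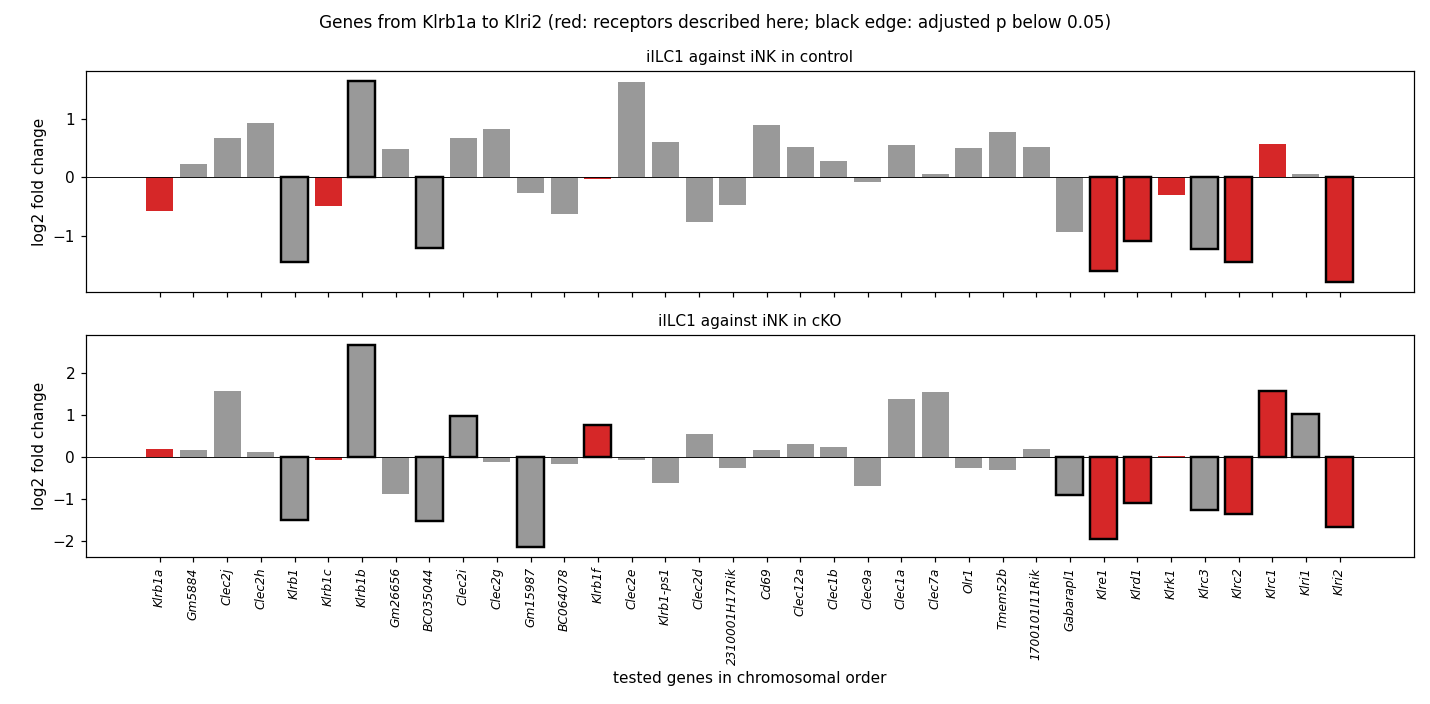
Log2 fold change of iILC1 against iNK (y axis) for the 36 tested genes from Klrb1a to Klri2 in chromosomal order (x axis, evenly spaced), in control (top) and cKO (bottom). Red bars are the receptor genes described here, grey bars the other 27, and a black edge marks an adjusted p below 0.05; calls in both directions stand side by side, as for Klrc2 and Klrc1 in cKO.

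Other genes whose pattern over the 14 libraries was most like that of each receptor were taken by Pearson correlation of log2(CPM + 1), among 11100 genes with a mean of at least 10 CPM. These coefficients describe libraries that share group, depth and background, and Klrg1 was below the level needed. Klri2 was most like Mcam (0.985) and Dglucy (0.98), Klre1 like Txndc5 (0.987) and Klhdc2 (0.984), Klrd1 like Zfp512 (0.982) and Tcf3 (0.98), and Klrc2 like Tex261 (0.978) and Mef2a (0.973). Klrc1 was most like Mapkapk3 (0.958) and Cd160 (0.956), and Klrb1f like Id2 (0.966) and Fth1 (0.947). Klrb1c was most like Sqstm1 (0.981) and Slc50a1 (0.977), Klrk1 like Gimap5 (0.96) and Tprgl (0.956), and Klrb1a like Kctd20 (0.954) and Pdpk1 (0.936).

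Within a group, the receptor genes tended to be high or low in the same libraries. Their coefficient of variation over the libraries of a group ran from 12.3% for Klrb1f in control iNK to 38.4% for Klrc1 in cKO iILC1. Over the 9 genes other than Klrg1, the mean deviation from the group mean, on the log2(CPM + 1) scale, ran from −0.37 in cKO iNK replicate 2 to 0.53 in cKO iILC1 replicate 1. All 9 lay above their group mean in control iNK replicate 1, cKO iNK replicate 4 and cKO iILC1 replicate 1, and none did in cKO iNK replicate 2, control iILC1 replicate 2 and cKO iILC1 replicate 3. This was not particular to the receptors: the median correlation of 11100 genes, each as its deviation from the group means, with the receptors' mean deviation was 0.66 over the 14 libraries. Reads of olfactory and vomeronasal receptor genes, which lymphocytes should not express, made up 1180 to 3980 of every 1000000 counts in a library. In each of the 4 groups the library with the most of these reads had the lowest receptor deviation: control iNK replicate 3 (2640, −0.35), cKO iNK replicate 2 (3190, −0.37), control iILC1 replicate 2 (3980, −0.18) and cKO iILC1 replicate 3 (3590, −0.33). Over the 14 libraries, the receptors' mean deviation and that of the log2 background from its group mean correlated at −0.94. This background was also higher in control iILC1 (2230 to 3980) than in control iNK (1180 to 2640). Calls that changed with this background as a covariate are given beside the results. Estimates that changed sign with it are given in the closing section.

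**Figure D5:**
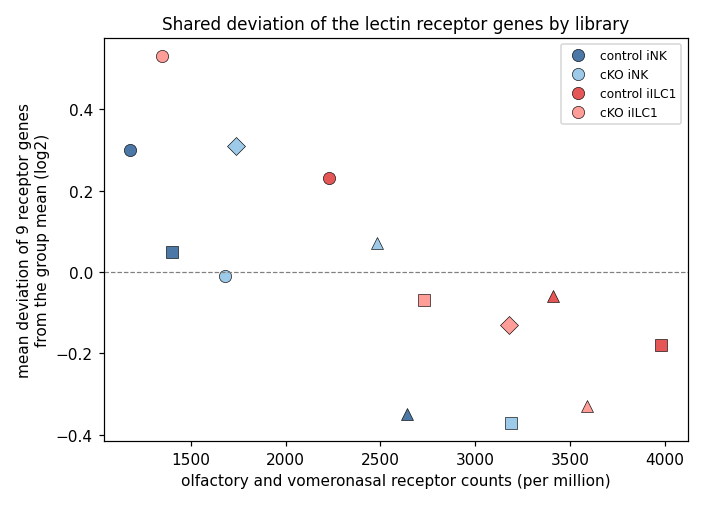
Mean deviation of 9 receptor genes from their group mean (y axis, log2) against olfactory and vomeronasal receptor counts per 1000000 (x axis) in the 14 libraries, coloured by group with the symbol giving the replicate. The 5 libraries with the most background, at 3180 and more, all lie below 0, and the highest point is cKO iILC1 replicate 1 at 1350.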

How the data were processed

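The authors deposited 1 table of raw read counts per Ensembl gene, whole numbers with no normalization per the file headers, and each of its 14 columns matched 1 sample by title. The submitters' processing notes list Trimmomatic 0.33, Subread 1.6.5 with featureCounts, HISAT2 2.1.0 and the build mm10. Which annotation release was used, whether strand was considered and how reads with several matches were treated are not given in the sources used here. Per the labels' protocols, cDNA was made with SMART-Seq v4 and tagged with Nextera XT, kits that do not mark strand. Of 46078 gene identifiers, 45143 (97.97%) matched a symbol.

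Genes were kept by filterByExpr (minimum count 10, minimum total 15), which left 26990. Counts were scaled by TMM and fitted in edgeR 4.0.16 (R 4.3.3) with 1 mean per group over all 14 libraries (10 residual degrees of freedom, common biological coefficient of variation 30%). Tests were quasi-likelihood F tests, two-sided, with Benjamini-Hochberg adjustment over all genes tested and a threshold of 0.05. Robust dispersion estimation was chosen after results without it had been seen, because earlier work on these counts used it; the same receptor genes passed either way. Standard errors are the log2 fold change divided by the square root of F.

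The members and lists were chosen with earlier results of these data known. All 10 receptor genes are described; of the lists, up to 3 genes that passed in a comparison are named, plus Klrb1b, Klrc3, Klri1, Tyrobp, Hcst, Ptpn6, H2-T23, Eomes and Tbx21, with marker lists mostly as counts and sums; Trbc1 was named after its values were seen. Background is the summed counts of 1465 olfactory and vomeronasal receptor genes, per 1000000 counts of the library, not scaled by TMM. Within groups, 18 replicate pairs differed by more than sampling noise (chi-square per degree of freedom 4.97 to 27.1). The models were tested on simulated data. Alternatives were other size factors (RLE), other filters, fits of only 2 groups, a replicate block, background as a covariate, DESeq2 1.42.0, leaving out libraries, and the fit without robust estimation.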

Additional observations from a re-analysis of the deposited data

How the results depend on the processing

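Over 23 alternatives, Klri2, Klre1 and Klrc2 passed in both comparisons of cell types, and Klrd1 and Klrc1 passed in cKO, under every one. The number of receptor genes passing was 3 to 5 in control and 5 to 6 in cKO, as against the 4 and 6 reported. For cKO against control in iNK, where 0 passed, 1 passed with only the 2 groups compared (Klrc1), with background as a covariate (Klrd1) and with DESeq2 (Klrg1), and 0 to 1 passed when single libraries were left out (Klrc1 without cKO iILC1 replicate 1). With background as a covariate, 1 also passed in iILC1 and 1 in the interaction (Klre1 in both). Klrc1 passed between the cell types in control with a filter of 5 CPM in 3 libraries (0.70, adjusted p = 0.0407) and with the covariate (1.05, 0.00216). The fit without robust estimation, added after seeing the data, called 0, 0, 4, 6 and 0 receptor genes in iNK and iILC1 genotype, control and cKO cell type and the interaction, the same numbers as with it. The cause of these changes was not tested.

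Deviations of same-numbered libraries correlated at −0.177 to 0.625 over 19 pairs, with 12 above 0.1. All 6 pairs numbered 1 were above 0.1 (0.209 to 0.625), those of the other numbers were mixed, and 5 of 14 libraries correlated best with their own number, so the numbers were not taken to pair the libraries. With the replicate block, 0, 0, 4, 6 and 0 receptor genes passed, and over all genes 189, 38, 2328, 1224 and 36, against 110, 13, 1109, 920 and 21. Other all-gene counts that moved by over 1.5 times, in that order of comparisons, were 453, 65 and, for cKO cell type and the interaction, 1789 and 38 with the covariate; 294, 46, 2180 and, for the interaction, 37 with DESeq2; 244 and, for control cell type, 1741 with 2 groups; 214 and 37 with the 5 CPM filter; and 30 in iILC1 without a filter. Without the 2 libraries of least background, 21 passed in iILC1. Leaving out single libraries gave 62 to 229 in iNK, 4 to 28 in iILC1, 400 to 2108 in control cell type and 9 to 31 in the interaction, with the highest counts of iNK and of control cell type without cKO iILC1 replicate 1. The covariate is itself higher in control iILC1 than in control iNK.

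None of the estimates that changed sign had passed as reported. With RLE factors and with DESeq2, Klrk1 in iNK was −0.01 in both. With the 5 CPM filter, Klrb1c in iNK was 0.04, Klrg1 in iILC1 −0.02, Klrb1f in control cell type 0.11, and the interactions of Klrc2 and Klrd1 −0.03 and −0.12. With 2 groups, Klrb1c in iNK was 0.01 and Klrb1f in control cell type 0.05. With the replicate block, Klrb1c in iNK was 0.01 and the interaction of Klrd1 −0.01. With the covariate, Klrb1c and Klre1 in iNK were 0.23 and 0.10; Klrc1, Klrd1 and Klrg1 in iILC1 −0.03, 0 and −0.04; Klrk1, Klrb1c and Klrb1f in control cell type 0.31, 0.01 and 0.36; Klrb1c in cKO cell type 0.03; and the interactions of Klrc2, Klrd1, Klrk1 and Klri2 −0.39, −0.46, −0.16 and −0.15. Without the 2 libraries of least background, Klrb1c and Klre1 in iNK were 0.08 and 0.05; Klrc1, Klrd1 and Klrg1 in iILC1 −0.12, −0.02 and −0.08; Klrb1f in control cell type 0.07; Klrk1 and Klrb1a in cKO cell type −0.21 and −0.03; and the interactions of Klrc2, Klrd1, Klrk1 and Klri2 −0.42, −0.36, −0.05 and −0.13. Leaving out single libraries gave ranges across 0 for Klrb1c (−0.22 to 0.14), Klre1 (−0.35 to 0.06), Klrd1 (−0.01 to 0.36) and Klrk1 (−0.12 to 0.23) in iNK; Klrg1 (−0.09 to 0.27), Klrc1 (−0.13 to 0.36) and Klrd1 (−0.02 to 0.41) in iILC1; Klrb1f (−0.19 to 0.07) in control cell type; Klrk1 (−0.16 to 0.18) and Klrb1c (−0.21 to 0.01) in cKO cell type; and the interactions of Klrc2 (−0.19 to 0.30), Klrd1 (−0.22 to 0.23) and Klri2 (−0.04 to 0.28).

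Depth limits Klrg1 most, with 32 to 116 counts per library. Counts of close copies (among them Klrc2 and Klrc3, and Klrb1a, Klrb1b and Klrb1c) remain uncertain under every alternative, since none changes how reads were assigned. In groups of 3 or 4, the intervals of the genotype estimates span about 1 log2 unit, and a difference that did not pass is not shown to be absent.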
